A study of Homo sapiens with 192 samples.

Results

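Carbonic anhydrases and bicarbonate transporters set the pH around and inside a cell, and 9 of their genes were followed here in colorectal carcinoma (CRC) cell lines. They are the carbonic anhydrase genes CA1, CA2, CA4, CA8, CA9, CA12 and CA13 and the bicarbonate transporter genes SLC4A4 and SLC4A7. They were taken from the 58243 gene identifiers of the count files by their Ensembl identifiers, and 7 of the 9 had enough counts to be tested, while CA1 and CA4 were below the filter on low counts.

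The lines were LS174T, HT29, HCT116 and LS513, all human, untreated and grown in 2D or in 3D, and their RNA was sequenced in 3 libraries for each of the 8 groups. HCT116 was kept in McCoy medium and the other lines in DMEM, so the medium and the line cannot be told apart in any comparison of HCT116 with another line. Neither the labels nor the methods say that the 3 libraries of a group came from separate cultures, and the p-values then measure only the spread between these libraries, which may be technical. The sources used here do not describe how the 3D cultures for RNA were made.

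Carbonic anhydrases convert carbon dioxide and water to bicarbonate and a proton, and back. Some members work in the cytosol, and others hang on the outer face of the plasma membrane, where they help a cell that makes much acid to clear it. CA9 is a textbook target of hypoxia-inducible factor (HIF), the transcription factor that is stabilised when oxygen is scarce, and bicarbonate transporters of the SLC4 family carry the buffer across the membrane.

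Library totals ran from 18723942 to 34277421 counts, with a median of 30777613, and 3 counts in a library, taken here as the floor of detection, came to between 0.0875 and 0.160 CPM, which is the count of a gene relative to the size of its library. All CPM values below were scaled with TMM, and all tests were edgeR quasi-likelihood tests over 19387 genes, called at an adjusted p under 0.05 with no cutoff on the fold change. Of the 4 leukocyte markers, which summed to between 0 and 15.3 CPM, PTPRC (the antigen CD45) had at most 2 counts in a library, while CD14 was at 6.11 ± 1.13 CPM in HT29 grown in 2D and rose to 12.6 ± 2.53 CPM in 3D (SD, n = 3; adjusted p = 0.0072, edgeR). The 5 fibroblast markers summed to between 0.341 and 22.1 CPM. The highest of these sums were in HCT116 and were mostly COL1A1, at 14.1 ± 0.950 CPM in 2D and 16.0 ± 5.95 CPM in 3D. The 8 colorectal epithelial markers summed to between 3164 and 17484 CPM, but not all were present in each line. In HCT116 the mean of CDX1 was at most 0.00959 CPM, and VIL1 was at 0.223 ± 0.0691 CPM in 2D and 0.209 ± 0.0809 CPM in 3D (SD, n = 3). Bulk RNA cannot tell fewer cells of a kind from less RNA per cell.

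CA9, whose product is a membrane enzyme with its active site outside the cell, was higher in 3D in all 4 lines. It was the only member of which this was so. In HT29 it stood at 39.8, 44.3 and 40.6 CPM in the 3 libraries grown in 2D and at 189, 117 and 159 CPM in those grown in 3D. In LS513 the values were 3.57, 3.44 and 2.34 CPM in 2D and 68.4, 53.3 and 28.1 CPM in 3D. The 2D and 3D libraries did not overlap in either line, and the lowest 3D library of LS513 was still below every 2D library of HT29.

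HCT116 had the least CA9 of the 4 lines, with 0.362, 0.316 and 1.09 CPM in 2D, or 12, 11 and 34 counts, and 8.28, 7.55 and 5.58 CPM in 3D. LS174T had 56.2, 24.3 and 29.2 CPM in 2D and 355, 544 and 351 CPM in 3D. Again no 2D library reached a 3D library of its line. One HCT116 library grown in 2D, number 3, was high among its group, and without it the log2 change of CA9 in HCT116 was 4.35 in place of 3.62. In LS174T the 2D library number 1 was the high one.

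The increase of CA9 in 3D was 3.73-fold in HT29 (log2 1.90, standard error 0.32, adjusted p = 8.6e-05), where 21.1% of all tested genes were called higher in 3D. It was 16.0-fold in LS513 (log2 4.00, standard error 0.37, adjusted p = 1.5e-07), where 13.7% of all genes were called higher. HCT116 gave a 12.3-fold increase (log2 3.62, standard error 0.48, adjusted p = 1.4e-05) and LS174T an 11.4-fold increase (log2 3.51, standard error 0.33, adjusted p = 3.5e-07), beside backgrounds of 16.8% and 13.1%. The growth effect differed among the lines (adjusted p = 0.011, edgeR F test of the 4 effects together, a test that 17.1% of all genes passed). HT29 had the smallest log2 change, with a 95% interval from 1.24 to 2.56 that lay below the lower bounds of the other lines, which were 3.22 for LS513, 2.61 for HCT116 and 2.81 for LS174T.

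CA9 (ENSG00000107159) is at chr9:35673856-35681159 on the plus strand of GRCh38, in GENCODE 29. It shares 643 of its 1670 exonic bases with ARHGEF39, a gene read from the other strand. The libraries are strand specific, but whether the counting used strand is not given in the sources used here. The mean of ARHGEF39 went from 19.5 ± 2.20 CPM in 2D to 17.3 ± 0.758 CPM in 3D in HT29, from 36.2 ± 2.31 to 39.1 ± 3.56 CPM in LS174T, from 58.6 ± 3.75 to 45.0 ± 0.252 CPM in LS513 and, for HCT116, from 25.4 ± 2.35 to 21.5 ± 1.17 CPM (SD, n = 3).

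HIF binds DNA at a short core, of which ACGTG is a form. Only these letters were searched, on both strands, in the RefSeq promoter windows of the members (GRCh38.p14). The windows run from 250 bases before to 50 bases after a start site, and 4 members had such windows: CA9, CA12, SLC4A4 and SLC4A7. Of their 9 windows, 1 held these letters, that of CA9. The stretch around it is shown because it is the one place where these letters occur in the 9 windows. Sequence outside the windows and other forms of the core were not searched. The stretch is at chr9:35673898-35673926 on the plus strand, with its core on the opposite strand, shown here in capitals as its reverse complement. The middle base of the core is 16 bases before the RefSeq start site of that window, 35673928. In GENCODE 29 the gene starts earlier, at 35673856, so there the stretch lies inside the gene.
CA9: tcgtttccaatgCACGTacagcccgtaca
The same letters were found in 21.4% of all 35116 windows, so a match is a description of the sequence. No binding was measured.

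Most genes on a list of other known HIF targets rose with CA9. The list was chosen with earlier results of these data known, so its counts are a description only. Of 24 such genes, without CA9, 15 rose and 1 fell in HT29, 21 rose and 0 fell in LS513, 22 rose and 0 fell in HCT116, and 24 rose and 0 fell in LS174T. Tested were 23 of the 24 genes in HT29 and LS513 and all 24 in HCT116 and LS174T. The backgrounds of genes called higher were 21.1%, 13.7%, 16.8% and 13.1%, and those of genes called lower were 19.6%, 9.9%, 12.3% and 9.15%, in the same order. The median log2 change of the list, over its tested genes, was 0.74 for HT29, 1.16 for LS513, 1.25 for HCT116 and 1.38 for LS174T, beside 0.00, 0.00, 0.01 and 0.02 over all tested genes. HT29 had the lowest median of the list as well as the smallest change of CA9, but the other lines stood in opposite orders. Among those, LS513 had the lowest median of the list and the largest change of CA9 (log2 4.00). LS174T had the highest median and the smallest change of CA9 among them (log2 3.51), with HCT116 between (log2 3.62). The 95% intervals of these CA9 changes overlapped, so their order is not settled. They ran from 3.22 to 4.77 in LS513, from 2.61 to 4.62 in HCT116 and from 2.81 to 4.21 in LS174T. Whether CA9 and the list are related was not tested.

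NDRG1, a stress-response gene, led the list by p in HT29, LS513 and HCT116, with log2 changes of 4.34, 3.29 and 4.36. In LS174T it was BNIP3, which takes part in the removal of mitochondria, with a log2 change of 2.40. The 1 gene of the list that fell was the glycolytic enzyme ENO1 in HT29, by 0.45 on the log2 scale (adjusted p = 0.0026, edgeR), a gene looked up after the counts were seen. Levels of CA9 did not follow the list between lines. HCT116 and LS174T had nearly the same mean log2(CPM + 1) of the list in 3D, from 6.85 to 7.20 and from 7.03 to 7.17 over their libraries, while CA9 was at 7.14 ± 1.39 CPM in the first and at 417 ± 110 CPM in the second (SD, n = 3).

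**Figure D1:**
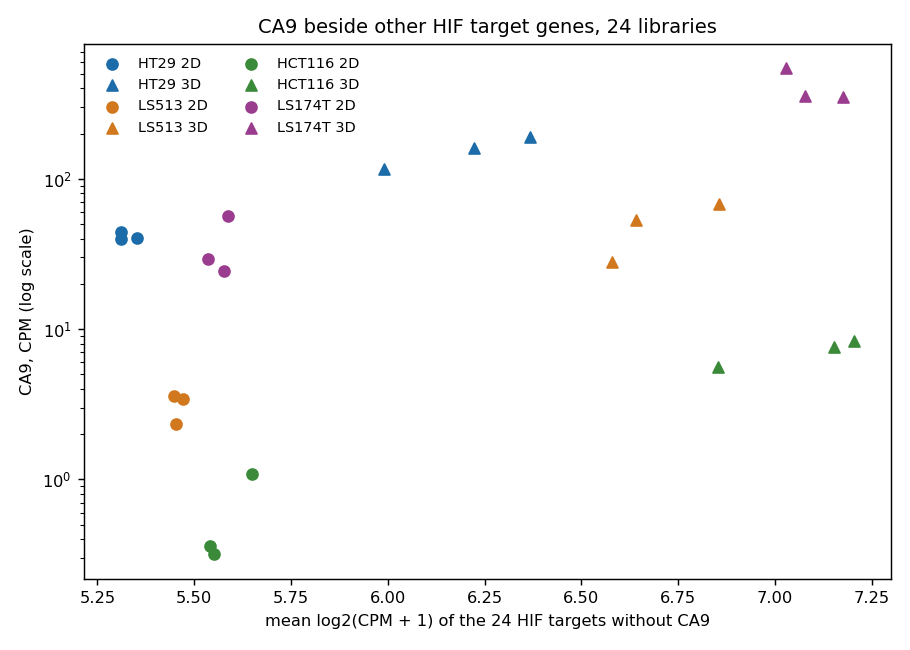
CA9 (vertical, CPM on a log scale) against the mean log2(CPM + 1) of 24 other HIF target genes (horizontal), 1 point for each of the 24 libraries, circles for 2D and triangles for 3D, coloured by line. In each line the 3 triangles lie above and to the right of the 3 circles, and the HCT116 and LS174T triangles share a horizontal range while their CA9 levels are far apart.

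CA12, the other carbonic anhydrase here with a transmembrane anchor and an outer active site, rose less than CA9 and in 2 of the 4 lines. In HT29 it went from 166, 122 and 133 CPM in 2D to 241, 212 and 255 CPM in 3D, 1.68-fold higher (log2 0.75, standard error 0.17, adjusted p = 0.0010). In LS513 it went from 19.7, 20.3 and 21.8 CPM to 57.0, 43.7 and 39.9 CPM, 2.27-fold higher (log2 1.18, standard error 0.17, adjusted p = 2.5e-05). The libraries of the growth conditions did not overlap in these lines.

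In HCT116, CA12 was at 6.92, 5.46 and 4.52 CPM in 2D and at 7.55, 7.51 and 6.12 CPM in 3D. In LS174T it was at 144, 131 and 147 CPM in 2D and at 203, 132 and 230 CPM in 3D. The libraries overlapped in both, and neither difference passed the test, with a 95% interval of the log2 change from -0.08 to 0.73 in HCT116 (adjusted p = 0.22, edgeR) and from 0.08 to 0.76 in LS174T (adjusted p = 0.068). The overlap in LS174T came from the 3D library number 2, without which the log2 change was 0.63 and passed (adjusted p = 0.0068, edgeR). Whether the growth effect of CA12 differed among the lines fell near the threshold (adjusted p = 0.052, edgeR).

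Levels of CA9 and CA12 can be set side by side per kilobase of exon (RPKM). CA9 led in HT29 in 2D, at 24.9 ± 1.44 RPKM against 19.2 ± 3.15 for CA12 (SD, n = 3), and the ratio of the 2 levels was 1.33 ± 0.273 over the libraries. In 3D the ratio was 2.86 ± 0.517. In LS513 it was 0.669 ± 0.174 in 2D and 4.56 ± 1.28 in 3D, so the order of the 2 genes was turned.

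In HCT116 the ratio was 0.513 ± 0.470 in 2D, with 1 of the 3 libraries above 1, at 1.06, and 4.40 ± 0.404 in 3D. In LS174T it was 1.13 ± 0.501 in 2D, where the libraries lay between 0.814 and 1.71, and 10.8 ± 6.26 in 3D, where they lay between 6.69 and 18.0. In every line the lowest 3D ratio was above the highest 2D ratio. CA9 was at 249 ± 65.9 RPKM in LS174T grown in 3D, above every other member in any group, with CA12 at 25.8 ± 6.88 RPKM there.

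CA12 (ENSG00000074410) is at chr15:63321378-63382161 on the minus strand and has 7313 exonic bases. Its level differed among the lines in 2D and in 3D, as did that of 6 of the 7 tested members in each condition, beside 91.7% of all tested genes in 2D and 91.7% in 3D. LS174T and HT29 were the highest for CA12 in 2D, at 141 ± 8.62 and 140 ± 23.1 CPM, and their libraries overlapped, while LS513 at 20.6 ± 1.11 CPM and HCT116 at 5.63 ± 1.21 CPM followed with no overlap. The 3D order differed in that HT29 stood first and LS174T second, again with overlap. For CA9 the 2D order was HT29, LS174T, LS513 and HCT116, the first 2 overlapping, and in 3D LS174T stood above HT29 with no overlap between any neighbours.

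**Figure D2:**
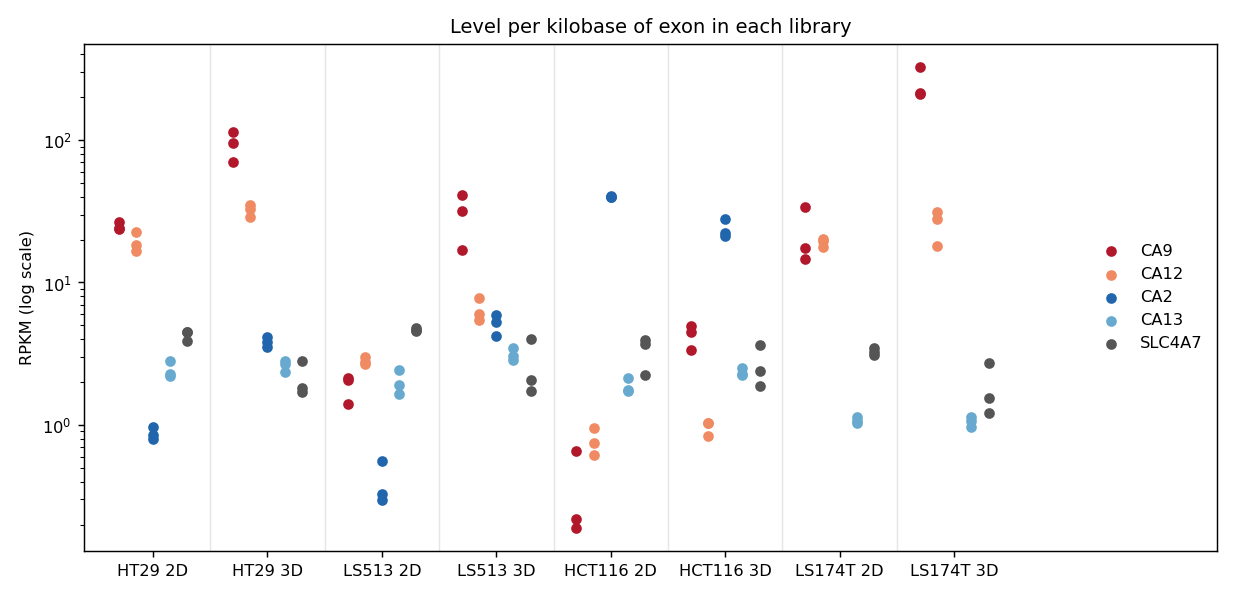
RPKM on a log scale (vertical) of CA9, CA12, CA2, CA13 and SLC4A7 in the libraries of each of the 8 groups (horizontal), 1 point for each library. CA9 is the top gene in all 3D groups but HCT116, where CA2 is on top, and CA2 has no points for LS174T, where 5 of its 6 libraries held 0 counts.

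CA2, a fast cytosolic carbonic anhydrase found in many epithelia, moved in opposite directions in different lines. In HT29 it was at 2.06, 1.69 and 1.81 CPM in 2D and at 8.11, 7.54 and 8.85 CPM in 3D, 4.40-fold higher (log2 2.14, standard error 0.20, adjusted p = 6.1e-08). In LS513 it was at 1.19, 0.695 and 0.634 CPM in 2D and at 12.5, 11.2 and 8.94 CPM in 3D, 12.9-fold higher (log2 3.69, standard error 0.21, adjusted p = 2.1e-10). The groups did not overlap in either line.

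HCT116 had the most CA2 and lost some of it in 3D. The 2D libraries stood at 84.9, 86.5 and 84.4 CPM and the 3D libraries at 45.2, 47.3 and 58.8 CPM, 1.69-fold higher in 2D, a log2 change of -0.76 (standard error 0.15, adjusted p = 8.8e-04). LS174T had none that could be detected, with 0, 2 and 0 counts in 2D and 0 in all 3D libraries, at most the floor of 3 counts. The growth effect differed among the lines (adjusted p = 3.7e-09, edgeR), a test that LS174T entered with these counts. CA2 was the top member per kilobase in HCT116, with 40.2 ± 0.514 RPKM in 2D and 23.8 ± 3.44 RPKM in 3D.

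Markers of absorptive colonocytes, the cells of the gut surface, were read beside CA2. Of 10 such genes, 6 were tested and 5 rose with 0 falling in HT29, 5 were tested and 3 rose with 1 falling in LS513, 1 was tested and rose in HCT116, and 4 were tested and 3 rose with 0 falling in LS174T. Of all genes, 21.1%, 13.7%, 16.8% and 13.1% were called higher and 19.6%, 9.9%, 12.3% and 9.15% lower in the same order of lines. CEACAM7 went from 2.75 ± 0.912 to 72.4 ± 9.86 CPM in HT29, and FABP1, which binds fatty acids, from 170 ± 18.7 to 2051 ± 467 CPM in LS513 (SD, n = 3). The marker that fell in LS513, where CA2 rose, was GUCA2B, from 1.02 ± 0.718 to 0.0699 ± 0.0693 CPM (adjusted p = 0.0024, edgeR). The keratin gene KRT20 rose from 0.646 ± 0.0372 to 2.50 ± 0.412 CPM in HCT116, where CA2 fell, and from 0.817 ± 0.208 to 12.5 ± 2.77 CPM in LS174T, where CA2 was at or under the floor. Whether the markers and CA2 are related was not tested.

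CA13, a cytosolic enzyme of the same family, rose in LS513 and differed little elsewhere. The LS513 libraries held 10.5, 9.15 and 13.4 CPM in 2D and 15.9, 16.7 and 19.0 CPM in 3D, with no overlap, and the change was 1.56-fold (log2 0.64, standard error 0.14, adjusted p = 0.0013). HCT116 had 9.54, 11.7 and 9.66 CPM in 2D and 13.8, 12.3 and 12.7 CPM in 3D, also with no overlap, but the log2 change of 0.33 did not pass (95% interval 0.04 to 0.61, adjusted p = 0.075). HT29 and LS174T overlapped, with log2 changes of 0.10 (interval -0.18 to 0.39) and -0.02 (interval -0.32 to 0.27).

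LS174T had the least CA13, at 5.97 ± 0.259 CPM in 2D and 5.87 ± 0.485 CPM in 3D, below every library of the other lines in either condition. HT29, LS513 and HCT116 followed each other in 2D at 13.5, 11.0 and 10.3 CPM on average, and each overlapped the next. In 3D, LS513 stood first with no overlap with HT29, and HT29 and HCT116 overlapped. The growth effect of CA13 was not shown to differ among the lines (adjusted p = 0.066, edgeR). CA13 shares 191 exonic bases with AC011773.3 on the other strand, which stayed at or below 0.234 CPM in every library.

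CA8, which codes for a family member that lacks catalytic activity and binds a receptor for inositol trisphosphate, also moved in opposite directions. HT29 had 0.652, 0.310 and 0.219 CPM in 2D, or 19, 9 and 4 counts, and 2.62, 1.63 and 1.70 CPM in 3D, 4.80-fold higher (log2 2.26, standard error 0.33, adjusted p = 1.3e-05). Without the 2D library number 1, the one with 19 counts, the log2 change was 2.90. LS513 had 7.08, 7.01 and 8.08 CPM in 2D and 3.66, 2.91 and 3.15 CPM in 3D, 2.28-fold higher in 2D, a log2 change of -1.19 (standard error 0.24, adjusted p = 7.2e-04). No library of one condition reached the other in these 2 lines.

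In HCT116, CA8 was at 1.27, 1.64 and 2.21 CPM in 2D and at 0.731, 1.05 and 1.40 CPM in 3D, with overlap and a log2 change of -0.68 that did not pass (95% interval -1.26 to -0.11, adjusted p = 0.069, edgeR). Without the 2D library number 1 or without the 3D library number 3 it passed, at log2 changes of -0.86 (adjusted p = 0.046) and -0.96 (adjusted p = 0.027), and it also passed with DESeq2 (adjusted p = 0.046) and with all genes of at least 1 count in the fit (adjusted p = 0.037). LS174T had 3.44, 4.09 and 5.33 CPM in 2D and 4.97, 5.43 and 5.47 CPM in 3D, which overlapped (log2 0.30, interval -0.18 to 0.78). The growth effect differed among the lines (adjusted p = 1.0e-05, edgeR). LS513, the line with the highest level in 2D, and HT29, the line with the lowest, were the 2 lines with a called change.

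CA4 codes for an enzyme held on the outer membrane by a lipid anchor, and CA1 for a cytosolic enzyme abundant in red cells and in colon. CA4 was seen in HT29 grown in 3D, with 5, 7 and 4 counts, beside 0, 1 and 0 counts in 2D. Summed over the libraries, 16 counts against 1 gave a ratio of 13.7 per scaled total, with an exact 95% Clopper-Pearson interval from 2.12 to 572 that covers counting error only. In the other lines no library held more than 2 counts of CA4. CA1 had 10 counts in all 24 libraries together and at most 3 in any one, so it was not detectable above the floor. Among erythroid markers, ALAS2 was at 0 counts in all libraries, while HBA2 was at 6.84 ± 0.911 CPM in LS513 grown in 2D.

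**Figure D3:**
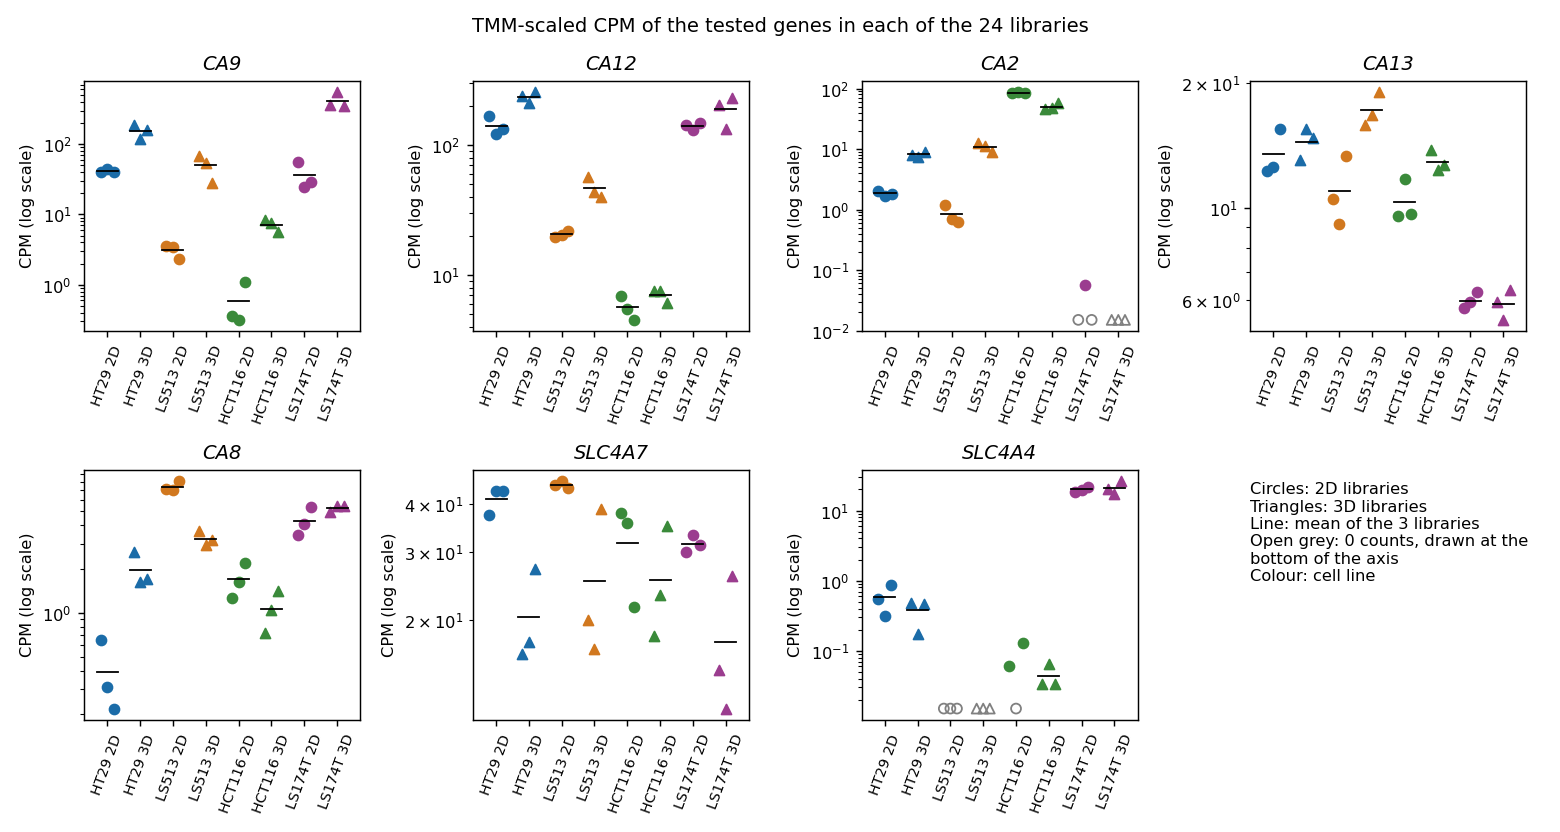
CPM on a log scale (vertical) of the 7 tested genes in each of the 24 libraries, grouped by line and growth condition (horizontal), with circles for 2D, triangles for 3D and a line at the mean of 3 libraries. CA9 has its triangles above its circles in all 4 lines, CA2 and CA8 change direction between lines, and SLC4A7 has 1 high triangle in each line.

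SLC4A7, a sodium bicarbonate cotransporter that brings bicarbonate into the cell, was the one member that was lower in 3D in several lines. HT29 had 37.3, 43.2 and 43.2 CPM in 2D and 16.3, 17.5 and 27.1 CPM in 3D, a log2 change of -1.03 (standard error 0.30, adjusted p = 0.0093), or 2.04-fold higher in 2D. LS513 had 44.7, 45.8 and 44.1 CPM in 2D and 20.0, 16.8 and 38.7 CPM in 3D (log2 -0.83, standard error 0.30, adjusted p = 0.045). LS174T had 29.9, 33.1 and 31.2 CPM in 2D and 14.8, 11.7 and 26.0 CPM in 3D (log2 -0.84, standard error 0.30, adjusted p = 0.048).

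The 2D and 3D libraries did not overlap in these 3 lines. They did in HCT116, with 37.8, 35.7 and 21.6 CPM in 2D and 18.1, 23.1 and 34.9 CPM in 3D, and the log2 change of -0.32 did not pass (95% interval -0.94 to 0.29, adjusted p = 0.45). In each line the highest 3D value belonged to the last-numbered 3D library, number 4 in HT29 and number 3 in the others. The growth effect was not shown to differ among the lines (adjusted p = 0.60, edgeR), and SLC4A7 was the 1 tested member whose level was not called different among the lines (adjusted p = 0.23 in 2D and 0.26 in 3D).

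The calls of SLC4A7 in LS513 and LS174T rested on small numbers. With any 1 of the 6 libraries of LS513 left out, other than the 3D library number 3, the adjusted p was between 0.086 and 0.23, and in LS174T, with the same exception, between 0.087 and 0.29. Without the 3D library number 3 the log2 changes were -1.29 in LS513 and -1.24 in LS174T. In HT29 the call was lost without the 3D library number 1 (adjusted p = 0.061, edgeR) or number 3 (adjusted p = 0.051).

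SLC4A7 (ENSG00000033867, chr3:27372721-27484420, minus strand) has 9616 exonic bases, and genes of that exonic length or longer made up the longest 10% of the tested genes. These 1934 genes were lower in 3D as a group, with a median log2 change of -0.24 for HT29, -0.13 for LS513, -0.13 for HCT116 and -0.24 for LS174T. Within groups, the libraries with high SLC4A7 had more of the long genes in some cases and not in others. In LS513, the 3D library number 3 was 0.03 above the mean of the line's 6 libraries in the median long gene, on the log2(CPM + 1) scale, while the other 3D libraries were 0.04 and 0.11 below it (-0.0414 and -0.1108). In LS174T the 3D library number 3 was 0.06 above the mean and the library with the least SLC4A7, number 2, stood at -0.28. In HCT116 the 2D library number 3, low in SLC4A7, stood at -0.08, while the other 2D libraries stood at 0.11 and 0.14. The 3D libraries of HCT116 did not share this order, since number 3, with the most SLC4A7 of its group, stood at -0.07 and number 2 at 0.00 (-0.0002). In HT29 grown in 2D, number 1 had the least SLC4A7 and stood at 0.11, above number 2 at 0.08. The part of transcript length in the change of SLC4A7 was not tested.

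SLC4A4, another sodium bicarbonate cotransporter, belonged to 1 line. LS174T had 18.2, 19.8 and 21.8 CPM in 2D and 20.0, 17.4 and 26.3 CPM in 3D, which overlapped, and the log2 change was 0.09 (95% interval -0.38 to 0.56, adjusted p = 0.83, edgeR). HT29 had 0.549, 0.310 and 0.877 CPM in 2D and 0.483, 0.173 and 0.472 CPM in 3D, with a log2 change of -0.52 (interval -1.44 to 0.39). HCT116 had at most 4 counts in a library and LS513 had 0 in all 6, which allows up to the floor of 3 counts in each. SLC4A4 (ENSG00000080493, chr4:71062667-71572087, plus strand) has 9622 exonic bases and so was also among the long genes.

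**Figure D4:**
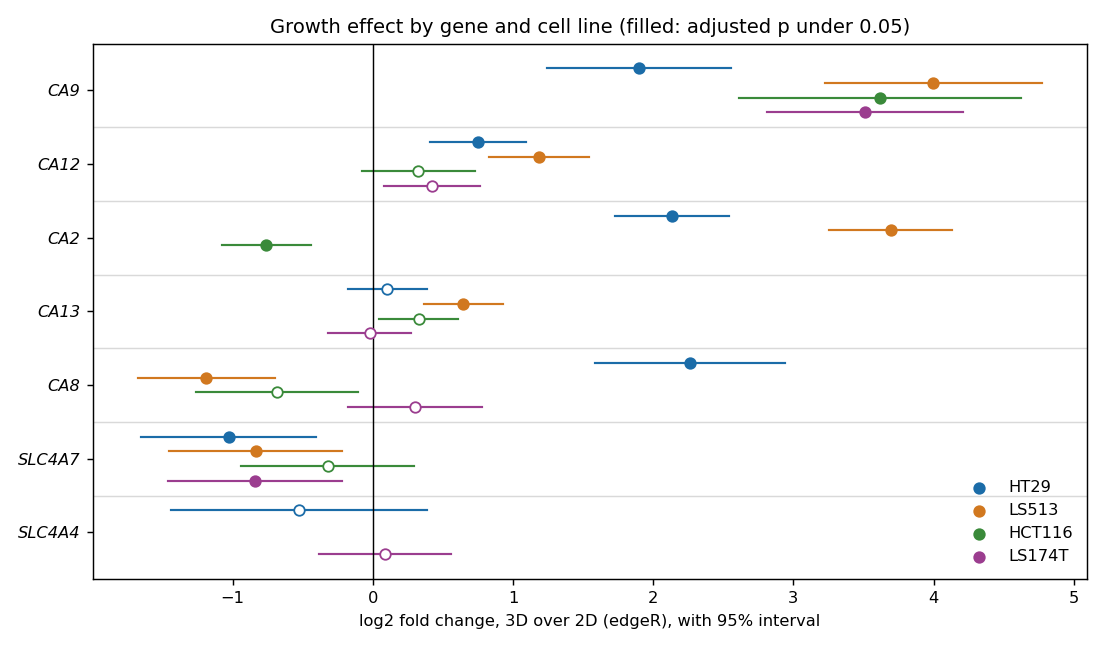
Log2 fold change of 3D over 2D (horizontal) with its 95% interval for each tested gene (vertical) and line (colour), filled where the adjusted p was under 0.05. All 4 filled CA9 points lie to the right of 0, the filled CA2 and CA8 points lie on both sides, and the 3 filled SLC4A7 points lie to the left.

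Counted by line, 4 of the 7 members tested in HT29 were higher in 3D and 1 was lower, and of the 6 tested in LS513, 4 were higher and 2 were lower. In HCT116 and in LS174T, 1 of 6 was higher and 1 was lower. The shares called higher in HT29 and LS513, and called lower in LS513, were above the backgrounds given above, and the other shares were near them. The median log2 change over the members was 0.75, 0.91, 0.00 and 0.20 in HT29, LS513, HCT116 and LS174T. CA9 was the 1 member that rose in HCT116 and in LS174T, and the member that fell was CA2 in the first and SLC4A7 in the second.

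Lists of other genes of pH control were read in the same way. Of 8 other carbonic anhydrase genes, 3 or 4 were tested in a line, and CA11, a secreted relative without known activity, rose in HT29 (3.79 ± 0.230 to 7.90 ± 1.18 CPM), HCT116 (9.54 ± 1.47 to 18.4 ± 0.609 CPM) and LS174T (0.586 ± 0.0156 to 1.21 ± 0.440 CPM). In LS513 the called gene was CA14, from 0.0215 ± 0.0372 to 0.282 ± 0.157 CPM. CA5B, a mitochondrial enzyme named after its values were seen, fell in HT29 and HCT116. Of 14 other genes of the SLC4 and SLC26 transporter families, 7 were tested in HT29, LS513 and LS174T and 9 in HCT116. Among them 0 rose in any line, while 1 fell in LS513 and 2 in each of the other lines. With so few genes tested, 13.1% to 21.1% of all genes called higher and 9.15% to 19.6% called lower, these counts say little. SLC4A11 fell in HT29 from 8.53 ± 0.927 to 4.06 ± 0.527 CPM, and it was also called lower in LS174T. SLC26A2, a sulfate and anion exchanger, fell in LS513 from 7.78 ± 0.593 to 3.71 ± 1.08 CPM, and it was also called lower in HCT116 and LS174T. SLC4A2, the gene of the list with the highest CPM, fell in HT29 from 549 ± 32.3 to 452 ± 17.7 CPM. In HCT116 it fell from 355 ± 22.5 to 293 ± 4.22 CPM (SD, n = 3).

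Of 19 genes of proton and lactate export, 11 were tested in HT29, where 2 rose and 4 fell, and 10 in LS513, where 4 rose and 0 fell. Of all genes, 21.1% were called higher and 19.6% lower in HT29, and 13.7% and 9.9% in LS513. In HCT116, 2 of 14 rose and 2 fell, and in LS174T, 1 of 11 rose and 1 fell, shares close to those of all genes (16.8% and 12.3%, 13.1% and 9.15%). SLC16A3, a lactate exporter known as MCT4, rose in all 4 lines, from 108 ± 1.26 to 165 ± 28.3 CPM in HT29, from 348 ± 64.6 to 494 ± 17.3 CPM in HCT116, in LS513 from 57.8 ± 4.31 to 192 ± 20.5 CPM and in LS174T from 75.0 ± 13.5 to 180 ± 18.5 CPM. SLC16A1, the lactate carrier MCT1, fell in HT29 from 174 ± 6.06 to 122 ± 16.6 CPM and in HCT116 from 181 ± 10.3 to 135 ± 12.9 CPM. Of 24 subunits and partners of the V-ATPase, the proton pump of acidic organelles, 8 of the 22 tested rose and 2 fell in HT29, beside 21.1% and 19.6% of all genes. In LS513, 4 of 20 rose and 2 fell (13.7% and 9.9% of all genes), in HCT116, 4 of 22 rose and 4 fell, and in LS174T, 2 of 22 rose and 1 fell, the last at or below the shares of all genes.

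The median log2 changes of the V-ATPase list were 0.18, 0.09, 0.07 and 0.10 in the same order of lines. ATP6V1G1 in HT29, from 44.7 ± 2.15 to 80.0 ± 12.4 CPM, had the smallest p of its changes. The smallest p in LS513 was that of ATP6V0A1, which rose from 52.9 ± 2.16 to 71.9 ± 3.61 CPM. In HCT116 it was that of ATP6AP1, which rose from 92.3 ± 6.24 to 119 ± 5.33 CPM. In LS174T it was that of ATP6V0A2, which fell from 28.9 ± 2.30 to 19.1 ± 2.25 CPM. ATP6V0A2 was called lower in every line. Of 9 genes of acid sensing and soluble adenylyl cyclase, 2 were tested in each line. Of these, 2 rose in HCT116, 1 in LS174T and 0 in HT29 and LS513, and 0 fell. Of all genes, 16.8%, 13.1%, 21.1% and 13.7% were called higher in the same order. With 2 genes tested, the counts say little about the list. ASIC1, an acid-sensing ion channel, rose in HCT116 from 25.3 ± 6.02 to 36.7 ± 7.82 CPM, and ASIC3 rose in HCT116 from 0.990 ± 0.0474 to 2.05 ± 1.28 CPM and in LS174T from 0.683 ± 0.0479 to 1.47 ± 0.183 CPM (SD, n = 3).

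The genes most alike to each member were sought by Pearson's r of log2 CPM over the 24 libraries, which share lines and growth conditions, so that r describes mainly the order of the 4 lines. For CA9 they were MMAB (r = 0.97), ECH1 (0.95) and CCNDBP1 (0.94), and for CA12 they were PTPN7 (0.98), PRXL2B (0.97) and LINC01977 (0.97). CA2 was most alike to B3GNT7 (0.97), IL1R1 (0.97) and ASAP3 (0.96), and CA8 to MYCL (0.94), DCST1-AS1 (0.93) and FAM222A (0.93). SLC4A7, whose level was not called different among the lines, was most alike to MED13 (0.96), AC073046.1 (0.92) and PHC3 (0.92).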

How the data were processed

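Libraries were made from polyA+ RNA with the TruSeq Stranded mRNA kit. Read counts per gene were deposited by the authors as whole numbers, 1 file for each of 191 technical replicates, made with Trim Galore 0.4.1, STAR and HTSeq 0.5.3. The submitters' processing notes name hg19, while the methods name Ensembl release 91, so only gene identifiers were matched, and 57980 of 58243 were in GENCODE 29 (GRCh38). Technical replicates were summed, 8 per library and 7 in 1 library of HT29 grown in 3D, the other not being used here. They were fitted with edgeR 4.0.16 in R 4.3.3 (filterByExpr, TMM, robust quasi-likelihood, 24 libraries, 8 groups), and p-values were adjusted by Benjamini-Hochberg over 19387 genes. With 3 libraries against 3, an exact permutation test cannot go below p = 0.1. The 11 same-numbered pairs of 2D and 3D libraries had correlations from -0.15 to 0.09, and none was over 0.1. The members and lists were chosen with earlier results of these data known. All members are named, and from a list the called gene with the smallest p in a line, up to 4 per list. The scripts were tested on simulated data. Alternatives were DESeq2 1.42.0, its size factors, another filter, a replicate block, cutoffs on the fold change, technical replicate d left out, 1 line at a time and each library left out.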

Additional observations from a re-analysis of the deposited data

Results flagged for a closer look

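For 3 of the 7 tested members the growth effect, 3D against 2D, differed among the 4 lines by the edgeR F test of the difference itself. For CA2 the adjusted p was 3.7e-09, with log2 changes of 2.14 in HT29, 3.69 in LS513 and -0.76 in HCT116. LS174T also entered this test, although CA2 was at or under the floor there. For CA8 the adjusted p was 1.0e-05, with log2 changes of 2.26 for HT29, -1.19 for LS513, -0.68 for HCT116 and 0.30 for LS174T. For CA9 it was 0.0105, with increases in all 4 lines from 1.90 in HT29 to 4.00 in LS513. Beside these 3, 17.1% of all tested genes passed the same test. Groups of 3 libraries are too small for the test of single libraries that stand apart, which was not run.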

How the results depend on the processing

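The number of members called in HCT116 was 2 and became 4 with DESeq2, 2 higher and 2 lower. In LS174T it was 2 and became 1 with the replicate block, without technical replicate d and with only the 6 libraries of the line, in each case through SLC4A7 (adjusted p = 0.055, 0.053 and 0.081). With each library left out in turn the numbers ran from 4 to 5 in HT29, from 5 to 6 in LS513, from 2 to 3 in HCT116 and from 1 to 2 in LS174T, and the members whose effect differed among lines from 3 to 4. DESeq2 gave 5 such members, adding CA12 (0.021) and CA13 (0.029). The difference of CA9 among lines missed the threshold with the replicate block (0.061), where the pairing of the libraries is by number alone, and that of CA12 met it there (0.045). The call of CA8 in HCT116 was gained with the replicate block (0.029), DESeq2 (0.046) and all genes with at least 1 count (0.037), that of CA13 in HCT116 with DESeq2 (0.049) and that of CA12 in LS174T with all genes (0.0042). There were 3 reversals of direction, none of a called change: with single libraries left out, the log2 change of CA13 in LS174T ran from -0.0808 to 0.0455, above 0 without the 2D library number 3 (0.0114) or the 3D library number 2, and that of SLC4A4 in LS174T from -0.0961, without the 3D library number 3, to 0.2208. Of 185 single values under the other settings, 171 kept direction and side of the threshold, 4 lost and 10 gained a call. The cause was not tested. Counts near or under the floor of 3 limit CA1, CA4, CA2 in LS174T and SLC4A4 in LS513 and HCT116.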
